A study of Mus musculus with 42 samples.

Results

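The cells described here are ILC1-like cells of the mouse uterus, picked from single-cell counts by a gate on raw UMIs (unique molecular identifiers, 1 per captured transcript). A cell was included when Cxcr6 and Cd200r1 together had at least 2 UMIs and Ncr1 and Klrb1c together at least 1. Eomes, the genes Cd3e, Cd3d and Cd3g, and Cd163l1 had to be at 0, the C1q genes at 2 UMIs or fewer, and the granzymes Gzmd to Gzmg at 3 or fewer. Of 15175 cells, 13084 had less than 10% of their UMIs from mitochondrial genes, and 50 of these passed the gate (0.382%, exact binomial 95% interval 0.284 to 0.504). They held 111611 UMIs, with a median of 1957.5 per cell (lowest 918, highest 7535) and a median of 1109 genes.

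The cells came from wild-type C57BL/6 females, virgin or at gestational day 8.5, with no treatment. Live CD45+ cells positive for NK1.1 and NKp46 were sorted from pooled uteri, marked with a tag for each sample, mixed and captured together on the BD Rhapsody platform. The table labelled virgin and the table labelled gestational day 8.5 listed the same 15175 cells in the same order, shared no gene (6821 genes in the former, 28416 in the latter) and carried no sample tag. They were therefore joined into 1 table of 35237 genes, all cells count as 1 pooled sample, virgin and pregnant cells cannot be told apart, and no test between conditions or over replicates was possible. Intervals given below cover counting error only.

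Type 1 innate lymphoid cells (ILC1s) are tissue-resident lymphocytes that, like natural killer (NK) cells, carry NK1.1 (encoded by Klrb1c) and NKp46 (Ncr1) and depend on the T-box factor T-bet. Unlike NK cells they develop without Eomes and act mainly through cytokines rather than by killing. In the uterus they share the tissue with resident NK cells (trNK), which carry Eomes and CD49a (Itga1), and with conventional NK cells (cNK), which recirculate. The authors gated uterine ILC1s as negative for Eomes and positive for CD49a, so they share CD49a with trNK.

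The gate genes chose the cells, so their values are a description. Cxcr6, a chemokine receptor of resident lymphocytes, had 126 UMIs in 47 cells, and Cd200r1, an inhibitory receptor known from ILC1s, 37 UMIs in 24 cells. Ncr1 was seen in 37 cells and Klrb1c in 40, with 27 cells carrying both. Entry rested on Cxcr6 alone in 26 cells, on Cd200r1 alone in 3 and on both in 21. At the edge of the gate, 20 cells had exactly 2 UMIs of Cxcr6 and Cd200r1, and 53 cells that met every other condition had 1. The granzyme limit, applied last, took the number from 101 to 50, with 11 cells at 3 UMIs just inside and 13 at 4 just outside. The Eomes condition alone kept out 5 cells and the CD3 condition alone 15. Gates set on 1 or 2 UMIs depend on depth, so an ILC1 sequenced too thinly to show Cxcr6 was not counted, and a cell with Eomes at 0 may still have expressed it.

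Members were compared with 3 groups cut from the same 13084 cells. All had the limits on Cd163l1, the C1q genes and Gzmd to Gzmg, and the trNK and cNK groups also those on the CD3 genes, Ncr1 and Klrb1c. Granzyme-low trNK cells had Eomes and Itga1 and no Cxcr6 or Cd200r1 (281 cells, median 3605 UMIs). The cNK cells had Eomes and Itga2 or S1pr5 and no Itga1, Cxcr6 or Cd200r1 (188 cells, median 1991). T cells had at least 2 UMIs of the CD3 genes, with no condition on Eomes, Ncr1, Klrb1c or Cxcr6 (274 cells, median 2291.5). In the clustering described at the end, 120 of these 274 lay in the cluster led by T cell genes, 102 in that of most ILC1-like cells and 33 in a cluster led by P2ry14, Tigit and Khdc1a, and 67.5% had a UMI of the Klra family, so this group is T cells by its CD3 UMIs only. No cell was in more than 1 group. Levels are CPM, the UMIs of a gene per 1000000 UMIs summed over the cells of a group. A gene counts as higher or lower when its level differed at least 2-fold, among genes outside the gates with at least 10 UMIs expected in the group with fewer UMIs if both had equal levels.

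Of 2029 genes compared with granzyme-low trNK cells, 84 were higher in the ILC1-like cells (4.14%) and 140 lower (6.9%). Against cNK cells 74 of 2096 were higher (3.53%) and 136 lower (6.49%), and against T cells 59 of 2091 were higher (2.82%) and 95 lower (4.54%). In either direction these came to 11%, 10% and 7.36% of the genes compared. The median ratio over all genes compared was 0.962, 0.984 and 0.980, respectively. The balance between higher and lower genes depended on the scaling and the filter. With TMM scaling, which moved the median log2 ratio from -0.06 to -0.29 for trNK, from -0.02 to -0.17 for cNK and from -0.03 to -0.21 for T cells, the counts were 37 higher and 251 lower, 48 and 188, and 36 and 163. With a filter on the plain mean of both levels, chosen after the data were seen, they were 174 (8.36%) and 82 (3.94%) of 2081, 123 (5.81%) and 97 (4.58%) of 2117, and 105 (4.96%) and 58 (2.74%) of 2119. When the granzyme limit was dropped from the trNK group, 30 of the 84 genes higher and 107 of the 140 lower were called again. In the comparisons below, trNK stands for the granzyme-low group. TMM scaling kept 37 of the 84 genes higher than in trNK, 48 of the 74 higher than in cNK and 36 of the 59 higher than in T cells. No gene called higher or lower below changed direction under it. Of the calls among the genes of all lists and the named genes, Tbx21, Tnfsf10, Trbc2, Ikzf3 (1.72), Cd74 (1.95), Itgb2 (1.86), Dusp1 (1.95), Rgs2 (1.88) and Zfp36 (1.88) fell under 2-fold against trNK, Rgs2 (1.81) against cNK, and Klrk1 (1.87) and Hspa1b (1.80) against T cells.

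**Figure D1:**
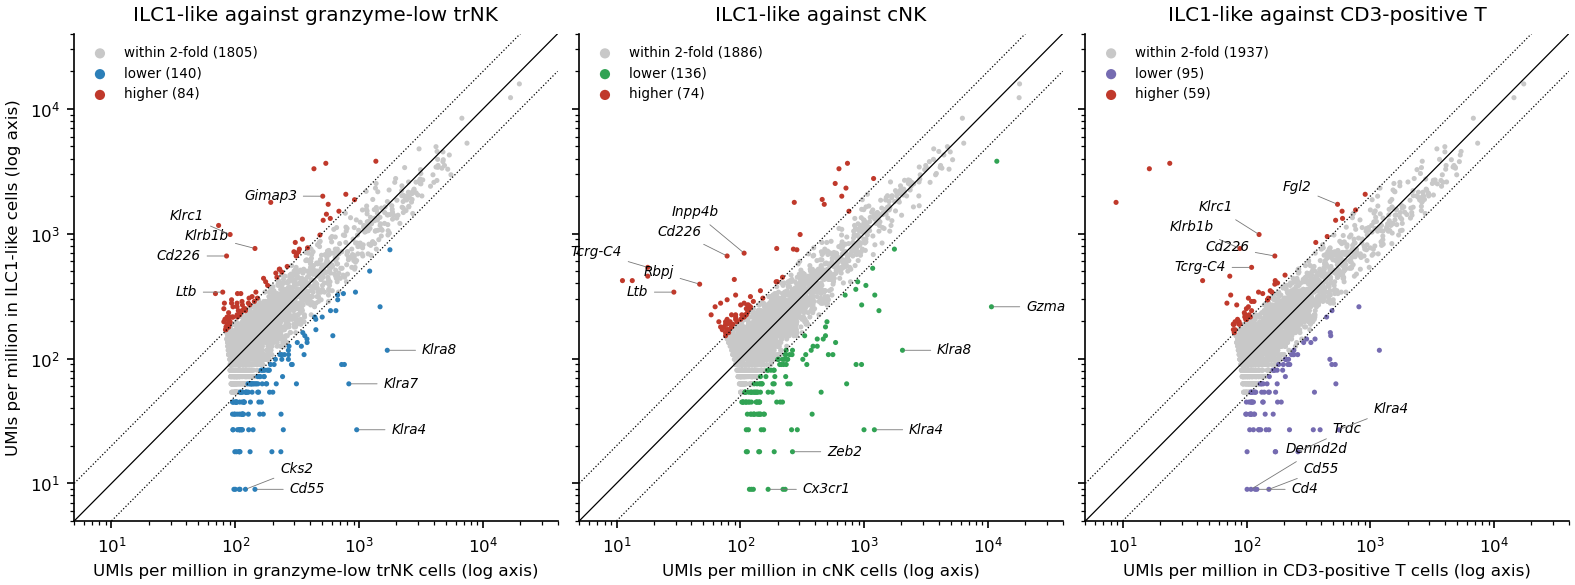
Each point is a gene, with its level in the ILC1-like cells on the vertical axis and in granzyme-low trNK, cNK or CD3+ T cells on the horizontal axis (CPM, log axes). The solid line marks equal levels and the dotted lines a 2-fold difference, genes without a UMI in the ILC1-like cells are drawn at the level of 3 UMIs, and the named points include Klrc1, Klrb1b and Cd226 above the lines and Klra4 and Klra8 below them. The unlabelled points far above the lines include haemoglobin genes, nearly all of whose UMIs came from 1 cell.

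Tmem176a and Tmem176b, which encode related proteins of intracellular membranes and are known from ILCs and myeloid cells, were high in the ILC1-like cells against all 3 groups. Their genes stand head to head on mouse chromosome 6, and their promoter windows overlap by 219 bases. The windows that overlap most among those of each gene are shown because both genes were high in the same group of cells. They run from 250 bases before to 50 after the start of transcription, from RefSeq on GRCm38.p6 (the counts were made on GRCm39), at chr6:48841406-48841705 on the plus strand for Tmem176a and at chr6:48841325-48841624 on the minus strand for Tmem176b. Capitals mark TCACAC, or GTGTGA on the other strand, the core of the element that T-box factors such as T-bet bind. It occurred 1 time in each of the windows shown, at the same place in the genome (48841537 to 48841542). Tmem176a has 2 windows and Tmem176b 3, and in each gene only the 1 window shown held these letters.
Tmem176a: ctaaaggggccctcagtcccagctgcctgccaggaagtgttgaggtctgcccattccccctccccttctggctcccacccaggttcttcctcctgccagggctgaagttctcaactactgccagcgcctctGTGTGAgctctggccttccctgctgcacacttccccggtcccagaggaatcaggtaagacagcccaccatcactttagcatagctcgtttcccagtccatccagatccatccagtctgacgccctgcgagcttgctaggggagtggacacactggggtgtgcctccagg
Tmem176b: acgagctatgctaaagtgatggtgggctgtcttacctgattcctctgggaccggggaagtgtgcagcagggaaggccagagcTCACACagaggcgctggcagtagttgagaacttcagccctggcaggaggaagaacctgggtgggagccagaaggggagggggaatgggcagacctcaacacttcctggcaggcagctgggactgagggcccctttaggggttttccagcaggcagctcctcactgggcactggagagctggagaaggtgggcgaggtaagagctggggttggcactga
Of 32851 promoter windows of this length, 4760 (14.49%) held these letters, so the match is a description and no evidence of binding.

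Tmem176a had 47 UMIs in 26 of the 50 cells (at most 5 in a cell) and Tmem176b 51 UMIs in 24 (at most 8). The level of Tmem176a was 421 CPM (exact Poisson 95% interval 309 to 560.0), against 15.0 in granzyme-low trNK, 11.2 in cNK and 44.2 in T cells. Tmem176b was at 457 (340.2 to 601), against 14.2, 17.9 and 73.3. The ratio was 37.7 (15.1 to 121) against cNK and 9.52 (6.02 to 15.2) against T cells for Tmem176a, and 25.6 (12.04 to 62.4) and 6.24 (4.20 to 9.24) for Tmem176b. Against granzyme-low trNK, where both genes had too few UMIs to pass the filter on counts, the ratios were 28.1 (16.02 to 51.4) and 32.3 (18.3 to 59.6). UMIs of either gene were found in 35 of 50 ILC1-like cells (70%, 55.4 to 82.1), with 15 cells holding both, compared with 8.54% of trNK, 4.26% of cNK and 11.7% of T cells.

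Macrophages also express this gene pair, and a cluster of macrophage-like cells in the same table had Tmem176a at 455 and Tmem176b at 769. Of other macrophage genes, Apoe, a lipid carrier, was at 134 against 6577 in the macrophage-like cluster, Ctss, a lysosomal protease, at 108 against 3616, and Adgre1 and Cd68 had 1 UMI each. C1qa was at 0, but the gate limited the C1q genes. In the clustering described at the end, the cell with 8 UMIs of Tmem176b lay in the cluster led by collagen genes, where Tmem176b was at 275. The 1 ILC1-like cell in the cluster led by C1q genes held 4 UMIs of Tmem176a and 2 of Tmem176b. The part of macrophage or stromal RNA in the levels of Tmem176a and Tmem176b was not tested. After each cell was thinned to 1000 UMIs, which left 48 ILC1-like cells, Tmem176a was found in 29.2% of them, against 52% without thinning. It was found in 1.63% of 307 B-like cells (median 1867.5 UMIs before thinning), used here as a guide to free RNA in the capture. These B-like cells were not held to the granzyme limit (Gzmd at 2146 CPM), so the gate may itself put the ILC1-like cells under them. Doublets were not removed, and whether NK cell transcripts in the B-like cells are free RNA was not tested.

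NK receptors went both ways. Of 23 receptor and adaptor genes compared with trNK, 3 were higher and 6 lower, beside 4.14% and 6.9% of all genes. The direction turned for 2 of the 6, Klra3 and Klri2, at ratios of 1.05 and 1.18 when the granzyme limit was dropped from the trNK group. Of 23 compared with cNK, 5 were higher and 7 lower (3.53% and 6.49% of all genes), and of 24 compared with T cells, 5 were higher and 5 lower (2.82% and 4.54%). Klrc1, which encodes the inhibitory receptor NKG2A, was at 986 CPM (110 UMIs in 38 cells), against 90.7 in trNK, 304 in cNK and 126 in T cells. The ratio of Klrc1 was 10.9 (8.26 to 14.3) against trNK, 3.24 (2.50 to 4.20) against cNK and 7.80 (5.90 to 10.3) against T cells. Its UMIs ranged from 0 to 11 per cell with a median of 1.5, and 9 cells held at least 50% of them. Klrd1, the CD94 chain that pairs with NKG2A, was within 2-fold of each group, at 806.4 against 1035, 920.4 and 720.1. Klrc2, the activating relative of Klrc1, was at 197 and also within 2-fold of each, although reads of this pair of similar genes can be hard to separate.

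Klrb1b, which encodes an inhibitory receptor of the NKR-P1 family, was at 762 (31 cells) against 144 in trNK, 197 in cNK and 88.4 in T cells, a ratio of 5.29 (4.03 to 6.89), 3.87 (2.84 to 5.28) and 8.61 (6.20 to 11.99). Cd226, an activating receptor for nectin-like ligands, was at 663 (34 cells), and the groups had 84.9, 78.2 and 169. Its ratio was 7.81 (5.71 to 10.6), 8.48 (5.60 to 13.1) and 3.92 (2.91 to 5.24). At 1000 UMIs per cell, Klrc1 was found in 54.2% of ILC1-like cells, Klrb1b in 47.9% and Cd226 in 45.8%, against 1.95%, 3.58% and 0.977% of B-like cells. Without thinning these shares of ILC1-like cells were 76%, 62% and 68%. Cd96 and Tigit, which bind the same ligand family as Cd226, had 188 and 71.7 CPM. Cd96 was within 2-fold of all groups, and Tigit had too few UMIs for the filter.

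**Figure D2:**
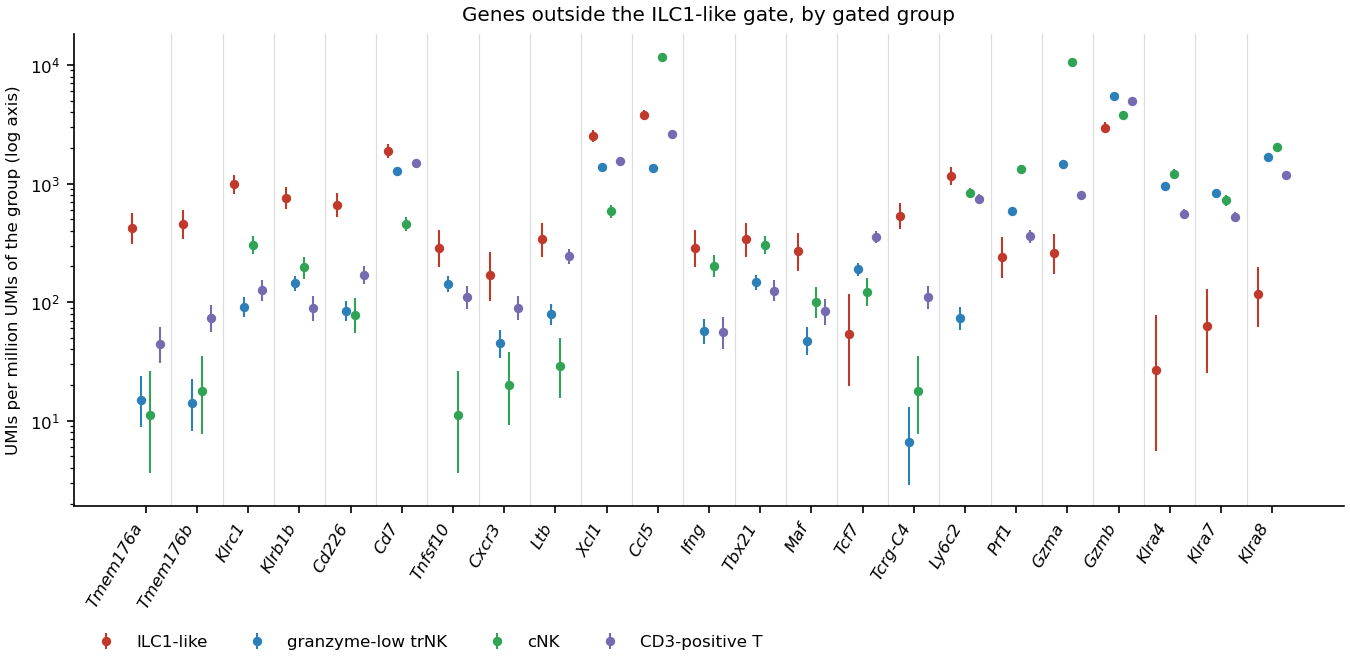
Levels of genes outside the ILC1-like gate (CPM, log axis) in the 4 groups, with exact Poisson 95% intervals as bars. Tmem176a, Tmem176b, Klrc1, Klrb1b and Cd226 on the left are highest in the ILC1-like cells, and the Klra genes on the right are lowest in them.

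The Ly49 receptors, encoded by the Klra family and specific for MHC class I, were low. The 11 Klra genes measured had 61 UMIs in all in the ILC1-like cells, a summed level of 547 (418 to 702), against 4846 in trNK, 5710 in cNK and 3351 in T cells. They include the pseudogene Klra13-ps, with 10 of the 61 UMIs in ILC1-like cells and 426 of 2556 in cNK. The sum was 8.87-fold lower than in trNK (6.89 to 11.6), 10.4-fold lower than in cNK (8.11 to 13.7) and 6.13-fold lower than in T cells (4.76 to 8.04). A UMI of the family was found in 23 of the 50 cells and in 97.5% of trNK cells, and at equal depth in 27.1% and 91.9%. B-like cells had a summed level of 832 and a UMI of the family in 30.3% of cells at equal depth. The level in the ILC1-like cells was under this, so the folds may not measure their own expression. The part of free RNA was not tested. Klra4 (Ly49D) had 3 UMIs in 2 cells, a level of 26.9 against 955 in trNK, 1209 in cNK and 557 in T cells. Klra8 (Ly49H) was at 116 against 1686, 2037 and 1183, and 6 of its 13 UMIs came from 1 cell. At 1000 UMIs per cell Klra4 was found in 4.17% of ILC1-like cells and Klra8 in 6.25%, below the 7.17% and 11.4% of B-like cells. Reads of the Klra genes can be split or lost between near-identical copies, and the sum does not hold Klra6 and Klra9, which were not analysed here. Klrg1, an inhibitory receptor of mature NK cells, had 4 UMIs and was 6.53-fold (2.52 to 24.1) lower than in trNK and 10.6-fold (4.06 to 39.3) lower than in cNK. The level of Klrg1 was 35.8, under the 119 of B-like cells, and at equal depth it was found in 6.25% of ILC1-like and 4.56% of B-like cells. The fold may therefore not measure their own expression.

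**Figure D3:**
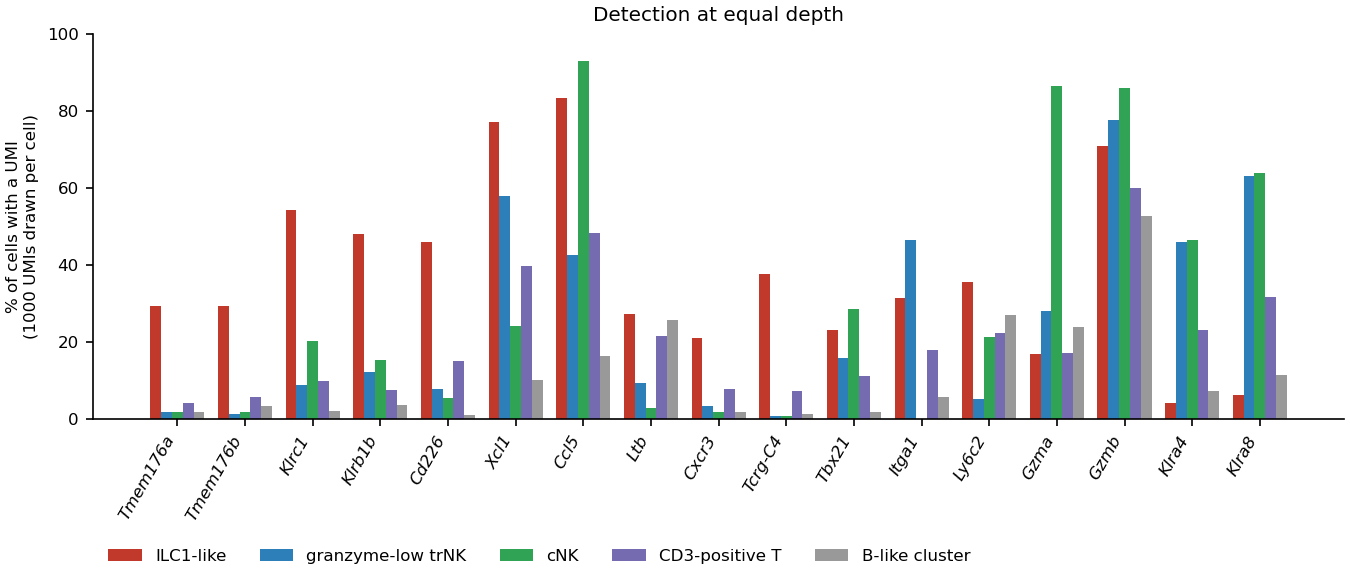
Share of cells with at least 1 UMI of each gene after every cell was thinned to 1000 UMIs, for 48 ILC1-like, 273 granzyme-low trNK, 183 cNK and 269 CD3+ T cells and 307 cells of a B-like cluster. The B-like bars are a guide to free RNA for most genes, and the ILC1-like bars of Gzma, Klra4 and Klra8 are lower than the B-like ones.

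Of the cytokine and chemokine genes, 5 of 7 compared with trNK were higher (Ccl3, Ccl4, Ccl5, Ltb and Tnfsf10) and none lower, with a median ratio of 2.36, beside 4.14% of all genes that were higher. Not all of these calls held under the alternatives. The ratio of Ccl3 to trNK was 0.964 with limits of over 200 and under 2500 UMIs per cell, that of Ccl5 was 0.943 in the 5 cells with receptor constant genes at 0, and that of Tnfsf10 was 1.71 with TMM scaling. Against cNK, Ltb and Xcl1 were higher and Ccl3 and Ccl5 lower (3.53% and 6.49% of all genes). Against T cells only Tnfsf10 passed 2-fold (7.36% of all genes in either direction). Xcl1, which attracts cross-presenting dendritic cells, was at 2527 (44 cells, 0 to 22 UMIs, median 4), against 1369 in trNK, 583 in cNK and 1550 in T cells, a ratio of 1.84 (1.62 to 2.09), 4.33 (3.65 to 5.15) and 1.63 (1.43 to 1.86). Ccl5, which attracts T and NK cells, was between trNK and cNK, at 3808 against 1364 in trNK and 11773 in cNK. Ltb, which encodes lymphotoxin beta, was at 340.5 (23 cells), 4.30-fold (2.87 to 6.33) above trNK and 11.7-fold (6.11 to 24.0) above cNK, and within 2-fold of T cells. B-like cells, which express Ltb themselves, had it at 275. Tnfsf10, the death ligand TRAIL and a classical ILC1 product, was at 287 (24 cells) against 142 in trNK and 110 in T cells, with ratios of 2.01 (1.34 to 2.95) and 2.61 (1.68 to 3.95). In cNK cells it was at 11.2, too few UMIs for the filter, and the ratio was 25.7 (9.93 to 84.4). Ifng, the main ILC1 cytokine, had 32 UMIs in 16 cells and a level of 287, against 57.4, 203 and 55.6. The ratio of Ifng to cNK was within 2-fold (1.41, 0.912 to 2.13). Those to trNK and T cells, where its UMIs were too few for the filter, were 4.99 (3.18 to 7.70) and 5.16 (3.17 to 8.32) and were not counted. Tnf had 5 UMIs and Csf2 had 1.

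Genes of residency were mostly higher, and genes of circulation mostly lower, than in cNK cells. Of the ILC1 identity and residency list, 3 of 9 genes were higher (Ltb, Tnfsf10 and Ikzf3, of which Ltb alone with TMM scaling) and 1 lower against trNK (median ratio 1.80), 7 of 10 higher and none lower against cNK (3.79), and 3 of 15 higher and 2 lower against T cells (1.63). Of the cNK identity and circulation list, 7 of 9 were lower and 1 higher against trNK (0.193), 11 of 12 lower against cNK (0.0906) and 7 of 12 lower against T cells (0.375). Of all genes, 4.14% were higher and 6.9% lower against trNK, 3.53% and 6.49% against cNK, and 2.82% and 4.54% against T cells. Both lists were drawn up with results of these cells known and hold genes of the same kind as the gates. S1pr1, for exit from tissue, had no UMI. Cx3cr1, a receptor of mature circulating NK cells, had 1 UMI and Zeb2, a factor of their maturation, 2, and the level in cNK cells was 168 and 264, respectively. Klf2, which drives the egress genes, was at 108 against 559 in cNK cells (5.19-fold lower, 2.92 to 10.2).

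On the residency side, Inpp4b, a lipid phosphatase known from ILC1s, was at 699 (34 cells), 6.52-fold (4.49 to 9.54) above cNK and within 2-fold of trNK and T cells. Rgs1, which dampens chemokine signals, was at 2321 (40 cells), 3.26-fold (2.75 to 3.85) above cNK. Cxcr3, a receptor for interferon-induced chemokines, was at 170 (15 cells) against 45.0 in trNK, 20.1 in cNK and 89.7 in T cells. Itga1, which the gate did not ask for, had 37 UMIs in 21 cells, a level of 331 against 278 in T cells, and since it defined the trNK and cNK groups no comparison with those was made. Itgb7, an integrin chain for mucosal homing, was 3.17-fold (2.08 to 4.71) above trNK. Itga4, which pairs with it, was 9.60-fold (5.16 to 20.2) lower than in cNK. Ly6c2, a surface protein of circulating and activated lymphocytes, went against the rest of its list at 1165, 15.9-fold (12.04 to 21.1) above trNK and within 2-fold of cNK and T cells. It was confined to 22 cells, 6 of which held at least 50% of the UMIs, and the level in B-like cells was 716.

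Of the transcription factor genes compared, 1 of 12 was higher and 3 lower against trNK, 1 of 14 higher and 5 lower against cNK, and 2 of 15 higher and 3 lower against T cells, beside 11%, 10% and 7.36% of all genes compared that passed 2-fold in either direction. Tbx21, which encodes T-bet, was at 340.5 (26 cells), 2.32-fold (1.59 to 3.31) above trNK, 2.72-fold (1.82 to 3.99) above T cells and within 2-fold of cNK, where it was at 306. With TMM scaling the ratio of Tbx21 to trNK was 1.98. Maf was at 269 (21 cells), 2.67-fold (1.63 to 4.34) above cNK and 3.22-fold (2.02 to 5.03) above T cells. Macrophage-like cells also had Maf, at 912. Tcf7, the factor TCF-1 of early and memory-like lymphocytes, had 6 UMIs, 3.52-fold (1.59 to 9.68) lower than in trNK and 6.58-fold (2.99 to 18.1) lower than in T cells. Id2, Runx3 and Gata3 were within 2-fold of all 3 groups. Zfp683 (Hobit) and Prdm1 (Blimp-1) had no UMI, which allows up to 26.9 CPM each (3 UMIs). Of 6 measured ILC3 genes 1 had a UMI, as in trNK and cNK cells, and of 9 ILC2 genes 2 did, against 3 in trNK and 3 in cNK cells. The ILC2 genes summed to 179 in ILC1-like cells, 113 in trNK, 103 in cNK and 143 in T cells. Il7r, the interleukin-7 receptor found on many ILCs, had 5 UMIs in 4 cells, 4.26-fold (1.79 to 13.3) lower than in T cells. Il21r, the interleukin-21 receptor, had 7 UMIs and a level of 62.7 against 84.1, 46.9 and 120.0. Neither difference of Il21r from the NK groups could be counted at this depth.

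T cells share Cxcr6 and the lack of Eomes with ILC1s, so genes of the T cell receptor and of T cells were compared. Against trNK, 1 of 5 was higher (Trbc2) and 1 lower (Trdc). Against cNK, 2 of 7 were higher (Tcrg-C4 and Trbc2) and 1 lower (Trdc), and against T cells 1 of 13 was higher (Tcrg-C4) and 6 lower, among them Lat and Bcl11b, a signalling adaptor and a factor of T cells. Of all genes compared, 11%, 10% and 7.36% passed 2-fold in either direction. Trac, the alpha constant gene, was not analysed here. Cd8a and Cd8b1 had no UMI and Cd4 had 1, against 125, 152 and 121 CPM in T cells. Trbc1 and Trbc2, the receptor beta constant genes, were at 851 and 753, against 579 and 1057 in T cells and 475 and 329 in trNK. The ratio of Trbc2 was 2.29 (1.79 to 2.90) to trNK, or 1.95 with TMM scaling, and 2.81 (2.10 to 3.74) to cNK. A UMI of Trbc1, Trbc2 or Trdc was found in 45 of 50 ILC1-like cells (90%), 89.0% of trNK, 77.7% of cNK and 93.4% of T cells. At 1000 UMIs per cell these shares were 81.2%, 54.9%, 56.8% and 74.7%, and 16.3% of B-like cells had one. Tcrg-C4, a receptor gamma constant gene, was at 538 (60 UMIs in 26 cells, at most 6 in a cell), against 6.66 in trNK, 17.9 in cNK and 110 in T cells. Its ratio was 30.1 (14.3 to 72.8) against cNK and 4.89 (3.46 to 6.87) against T cells, and 80.7 (38.4 to 195) against trNK, where its UMIs were too few for the filter. Trdc, the delta constant gene, was low, with 2 UMIs against a level of 233 in trNK, 188 in cNK and 260.3 in T cells. The level of Trdc was 17.9, under the 36.7 of B-like cells. Reads of the gamma constant genes can be split between similar copies. Tcrg-C1 had 11 UMIs, 10 of them in 1 cell, and Tcrg-C2 had 2. When cells with a UMI of these receptor constant genes (Trbc1, Trbc2, Trdc) were left out, 5 ILC1-like cells remained.

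Of the genes that mark uterine trNK effectors and stages, 7 of 9 were lower in the ILC1-like cells than in trNK and none higher. Against cNK 4 of 8 were lower and Gzmc higher, and against T cells 5 of 9 were lower. The shares of all genes that were lower were 6.9%, 6.49% and 4.54%, respectively. Gzmc was at 744 in ILC1-like and 1102 in B-like cells, and at equal depth it was found in 33.3% and 36.8% of them. Its 83 UMIs in the ILC1-like cells were uneven, with at least 50% in 4 cells and at most 16 in a cell. The part of free RNA in Gzmc was not tested. Gzma, granzyme A, was at 259.8 (13 cells), 5.67-fold (3.94 to 8.498) lower than in trNK and 41.0-fold (28.5 to 61.3) lower than in cNK. At equal depth it was found in 16.7% of ILC1-like and 23.8% of B-like cells. The B-like cells were not held to the granzyme limit, and the part of free RNA was not tested. Prf1, the pore-forming perforin, was at 242 (22 cells), 2.43-fold (1.65 to 3.71) lower than in trNK and 5.44-fold (3.70 to 8.32) lower than in cNK, and at 284 in B-like cells. Gzmb was at 2966, within 2-fold of each group, and 88 of its 331 UMIs came from 1 cell. B-like cells had Gzmb at 1844, and at equal depth it was found in 70.8% of ILC1-like and 52.8% of B-like cells. Spp1, the secreted osteopontin, was 8.47-fold (4.59 to 17.7) lower than in trNK, at 89.6 against 350 in B-like cells. Tnfrsf9, the costimulatory receptor 4-1BB, was 4.02-fold (2.50 to 6.94) lower, at 152 against 267 in B-like cells. Nkg7, a granule membrane protein, was seen in all 50 cells and stayed within 2-fold of each group. The gate itself limited Gzmd to Gzmg, which are expressed with several of these genes in uterine trNK, so this list was not free of the gate. Of the cell cycle genes, 5 of 9 were lower than in trNK, among them Mki67 (6 UMIs in 3 cells) and Pclaf (3 UMIs), 2 of 7 lower than in cNK and 1 of 6 lower than in T cells, and none was higher. Of all genes, 6.9%, 6.49% and 4.54% were lower. The 5 genes lower than in trNK were also under their level in B-like cells. Mki67 was at 53.8 against 68.7, Pclaf at 26.9 against 115 and Top2a at 62.7 against 71.1. Stmn1 was at 62.7 against 83.0 and Birc5 at 8.96 against 33.2. The folds may therefore not measure their own expression. The 20 cell cycle genes summed to 1245 in ILC1-like cells, 2407 in trNK, 1749 in cNK and 1433 in T cells. In ILC1-like cells 1 cell held 34 of their 139 UMIs. With each cell weighted equally the ratio of Top2a to trNK was 1.00.

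Further genes were among the 12 highest or lowest ratios. Of these, Cd55 is also on the trNK effector list counted above and Junb on the immediate early list, and the others are on no list. Gimap3, a GTPase for lymphocyte survival, was at 1998 (47 cells), 3.93-fold (3.36 to 4.59) above trNK and 3.03-fold (2.54 to 3.62) above cNK. Fgl2, a secreted regulator of immune responses, was at 1720.3 (41 cells) and 3.06-fold (2.59 to 3.60), 3.62-fold (2.96 to 4.41) and 3.17-fold (2.66 to 3.76) above trNK, cNK and T cells. Rbpj, the DNA-binding partner of Notch, was at 394 (23 cells), 8.40-fold (4.89 to 14.9) above cNK and 2.33-fold (1.62 to 3.30) above T cells. Ccnd2, a D-type cyclin, was 2.60-fold (2.07 to 3.24) above trNK only. Cd55, which shields cells from complement, had 1 UMI, a ratio of 0.0622 (0.00157 to 0.351) to trNK and 0.0591 (0.00148 to 0.336) to T cells. Junb, an immediate early factor, was 2.65-fold (2.29 to 3.07) above trNK and 2.28-fold (1.96 to 2.65) above T cells. All 18 measured immediate early and heat shock genes together were at 14819 in ILC1-like, 9728 in trNK, 13721 in cNK and 9264 in T cells, and the part of cell handling in this was not tested.

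**Figure D4:**
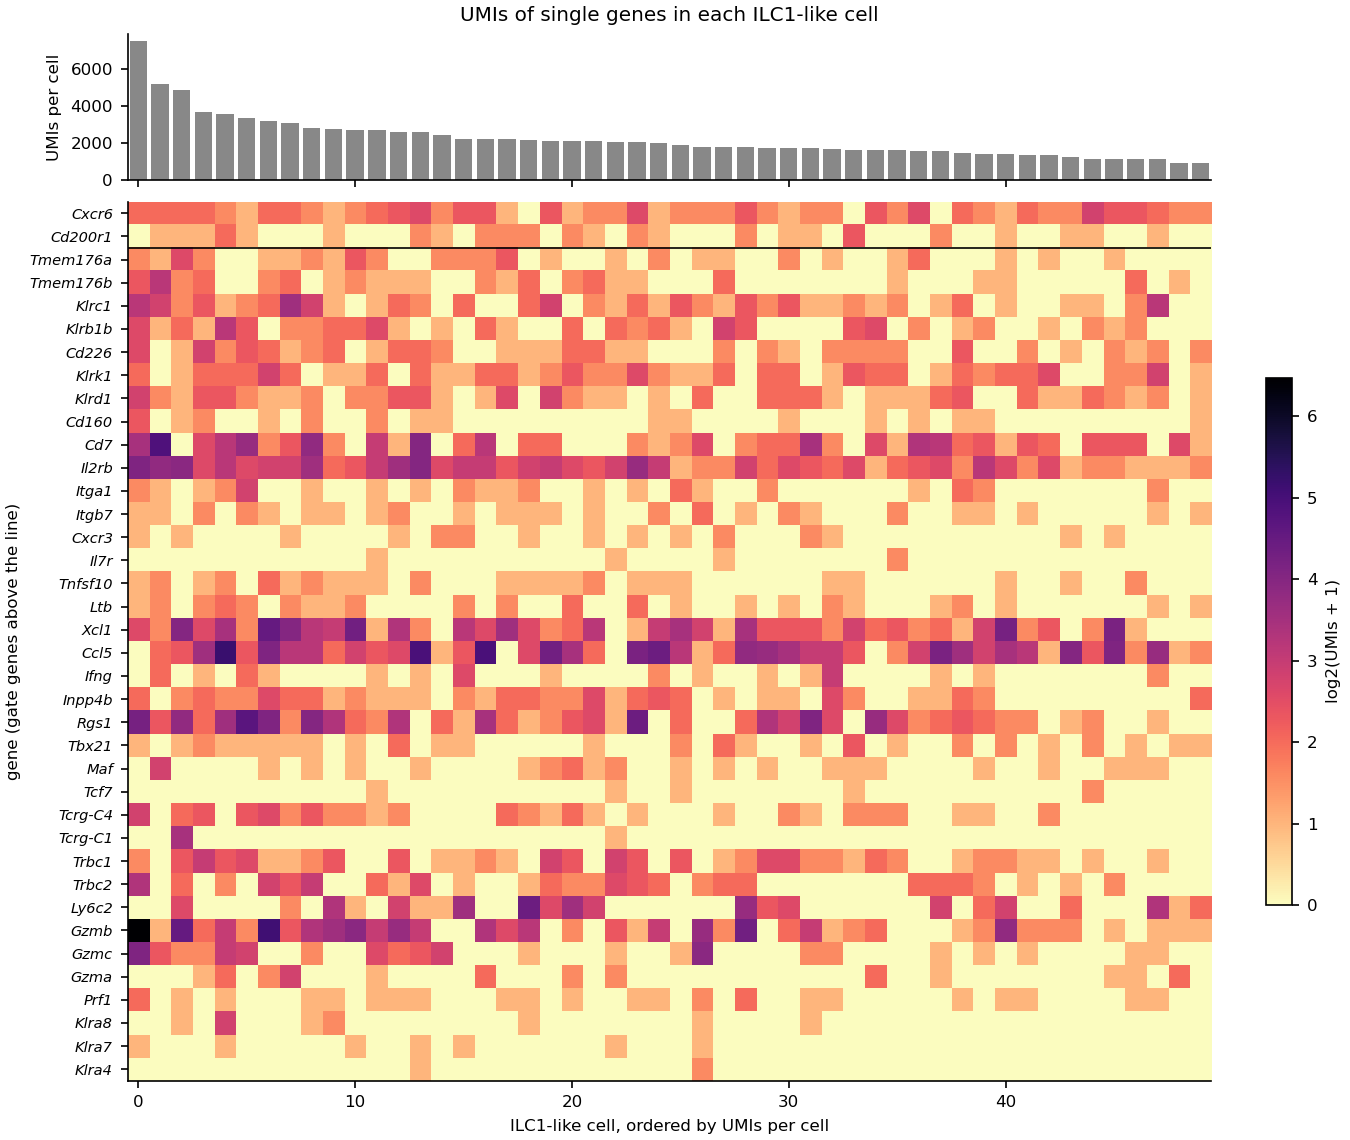
UMIs of the gate genes Cxcr6 and Cd200r1 and of genes outside the gate in each of the 50 ILC1-like cells, as log2(UMIs + 1) in colour, with cells ordered by their total UMIs (bars above, lowest 918 and highest 7535). Xcl1, Ccl5, Il2rb and Cd7 fill most columns, Tmem176a, Klrc1 and Tcrg-C4 a large part of them, and Klra4 and Il7r very few.

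The 50 cells varied among themselves in some genes. Ccl5 was the most over-dispersed of 267 genes ranked at 1000 UMIs per cell (variance 3.47 times the mean). The median over the 267 genes was 1.00. Tmsb4x (3.14), mt-Rnr2 (2.80), Junb (2.57), Actb (2.46) and Rgs1 (2.42) came next. Fgl2 (1.97) and Cd7 (1.93) were among the first 15, as were Ubb, Malat1, mt-Co1 and mt-Nd5. Cells that entered by Cxcr6 alone (26 cells) and those with a Cd200r1 UMI (24 cells) had Tmem176a, Tmem176b, Klrc1, Cd226, Tbx21 and Tcrg-C4 within 2-fold of each other. Ly6c2 was lower with Cxcr6 alone, at 658 against 1652 (ratio 0.398, 0.263 to 0.590), and Ctla2a higher, at 512 against 158 (3.23, 1.48 to 7.79). Of 978 genes with enough UMIs to compare, leaving out the gate genes, Itga1 and genes with over 50% of their UMIs in 1 cell, 80 (8.18%) differed at least 2-fold between these parts, and 10 of 92 listed genes did (10.9%). Between the 21 cells with an Itga1 UMI and the 29 without, 84 of 978 (8.59%) and 13 of 92 listed genes (14.1%) did. Among them were Gzmc, at 1152 against 339 (ratio 3.40, 2.01 to 6.01), and, near the 2-fold limit, Cd7 (ratio 2.02, 1.51 to 2.73) and Tbx21 (0.466, 0.214 to 0.956). Of the 64 Gzmc UMIs in cells with Itga1, single cells held 16 and 14, and 1 cell held 28 of the 140 of Cd7. The intervals do not cover such differences between cells, and a split on 1 UMI depends on depth. Over all 50 cells the level of Gzmc was under that of B-like cells. Xcl1 was within 2-fold, at 1836 with Itga1 and 3211 without (ratio 0.572, 0.444 to 0.733).

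When all kept cells were clustered without the gate genes, 43 of the 50 ILC1-like cells fell into cluster 7 of 18. This cluster had 2147 cells, was led by Itgad, Cxcr6, Ltb, Cd7, Cxcr3 and Tcrg-C4, and also held 161 of 281 granzyme-low trNK, 27 of 188 cNK and 102 of 274 T cells, so the ILC1-like cells did not form a cluster of their own. Another 3 cells were in cluster 8 (63 cells, led by Cxcl10, Ifit1 and other interferon-induced genes). These 3 held 119 of the 217 UMIs of 15 interferon-stimulated genes, 16 to 70 each, against 87 UMIs, 0 to 6 each, in the 43 cells of cluster 7, and Cxcl10 had 47 UMIs in 3 cells with 40 in 1. The remaining 4 cells were spread over clusters led by small non-coding RNAs such as Rmrp and Rn7sk (cluster 2), collagen genes (6), C1q genes (9) and haemoglobin genes (15).

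**Figure D5:**
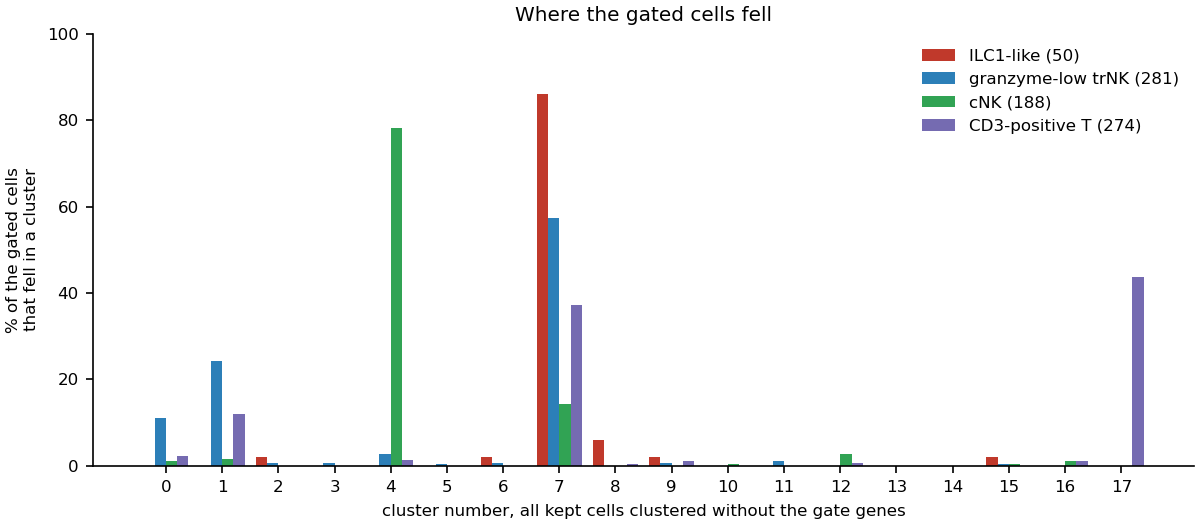
Share of each gated group that fell into each of 18 clusters of all 13084 kept cells, with the number of cells of each group in the legend. Cluster 7 holds 86% of the ILC1-like cells beside a large part of the trNK and T cells, and most cNK cells are in cluster 4.

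Haemoglobin and stromal RNA was concentrated in few cells. A UMI of any of the 24 marker genes of other cell types was found in 31 of 50 cells, and of the 6 B cell genes in 23. Of 979 haemoglobin UMIs in the ILC1-like cells 975 were in 1 cell, of 45 stromal UMIs 42 were in 1, and of 64 UMIs of 6 B cell genes 35 were in 1, all of Igkc. Mast cell and neutrophil genes had none, and 4 macrophage genes had 29 UMIs in 14 cells. In all, 24 measured marker genes of other cell types summed to 1117 UMIs, 0 to 976 per cell with a median of 1, and 9 of the 24 were at 0. Without the 3 cells that held 10 or more such UMIs, an alternative chosen after the data were seen, 70 genes were higher and 132 lower of 1801 against trNK, 58 and 133 of 1894 against cNK, and 54 and 91 of 1864 against T cells. Scrublet marked no cell of 13084 as a doublet, which at this number of cells means that the caller did not work, so doublets were not removed.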

How the data were processed

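Single cells were captured and sequenced with the BD Rhapsody whole transcriptome assay, and the deposited values are UMI counts without normalization, which the authors made with the vendor's pipeline against GRCm39. Values were read from the 2 tables, joined by cell number, and cells with 10% or more mitochondrial UMIs were left out. The members and gene lists were chosen with earlier results of these data known.

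From the counts, UMIs were summed per gated group and scaled to 1000000 (CPM, pandas 2.3.3, numpy 2.4.6). Levels have exact Poisson, shares exact binomial (Clopper-Pearson) and ratios exact conditional binomial 95% intervals (scipy 1.17.1), and a ratio of 2 or more either way counts as a call. Genes with no UMI are bounded at 3 counts. The ratio script was tested on simulated data. For shares at equal depth, cells were thinned to 1000 UMIs with a fixed seed and shallower cells were left out. Cells were clustered with scanpy 1.11.5 (10000 UMIs per cell, log1p, 2000 variable genes without the gate genes, 20 components, 20 neighbours, Leiden resolution 0.8), and B-like and macrophage-like clusters were named from markers that include Cd79a, Ms4a1 and the C1q genes. Doublets were scored with Scrublet. Named genes are members of the lists, the 12 highest and 12 lowest ratios per comparison with a UMI in at least 10% of the cells of the higher group and no cell with over 10% of its UMIs, and the 15 most over-dispersed genes.

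Alternatives were other depth, mitochondrial and gate limits, TMM scaling, equal weight per cell, thinning and other filters. The bulk files were not used here. Of the gene lists, Il18r1, Klra6, Klra9, Lag3, Trac, Csf1r, Lyz2, Bcl2 and 9 others were not analysed here. A few genes of the lists are not reported here by name.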

Additional observations from a re-analysis of the deposited data

How the results depend on the processing

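Limits on UMIs, gates on few UMIs and filters on low counts set the number of cells and calls, and 50 cells with a median of 1957.5 UMIs mean that a gene with no UMI may have been at up to 26.9 CPM. No paired analysis was possible because all cells form 1 pooled sample with no replicates, and for the same reason no replicate could be left out. Of the ratios of single genes under the alternatives, 2151 stayed within the 95% counting interval of the first ratio, 390 lay outside it and 13 called ratios crossed 1. Ratios to trNK moved often under several alternatives. With the limits of over 200 and under 2500 UMIs per cell, 54 stayed within the interval, 50 lay outside it and 3 crossed 1. Without the granzyme limit in trNK these numbers were 48, 55 and 2, and with receptor genes at 0 they were 4, 22 and 1. A ratio within its interval may still have passed under 2-fold.

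The ILC1-like share was 0.830% (36 cells) with over 200 and under 2500 UMIs per cell, and 0.550% with the same limits on genes. It was 0.229% (30 cells) with Cxcr6 and Cd200r1 at 3 or more, 0.787% (103 cells) at 1 or more, and 0.0382% (5 cells) with Trbc1, Trbc2 and Trdc at 0. Mitochondrial limits of 5% and 20% gave 48 and 50 cells.

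Against trNK, genes higher and lower numbered 37 and 251 with TMM scaling, 2353 and 6783 of 15360 with no filter, 36 and 64 of 1067 with the UMI limits, 28 and 50 of 784 with thinned cells, 44 and 89 of 1288 with Cxcr6 and Cd200r1 at 3 or more, 4 and 29 of 161 with receptor genes at 0, 155 and 343 of 1879 without the granzyme limit in trNK, and 174 and 82 of 2081 with the filter on the mean of both levels. Against cNK they numbered 48 and 188 with TMM scaling, 2575 and 4641 of 13208 with no filter, 38 and 88 of 1078 with the UMI limits, 30 and 65 of 810 with thinned cells, 36 and 111 of 1353 at 3 or more, 2 and 30 of 153 with receptor genes at 0, and 123 and 97 of 2117 with the mean filter. Against T cells they numbered 36 and 163, 2151 and 5934 of 14520, 51 and 97 of 1119 (UMI limits), 35 and 51 of 791 (thinned), 30 and 75 of 1332 (at 3 or more), 4 and 21 of 151 (receptor genes at 0), and 105 and 58 of 2119 (mean filter). With the UMI limits, thinned cells and 3 or more, fewer genes were compared. The shares higher and lower with the UMI limits were 3.37% and 6.00% against trNK, 3.53% and 8.16% against cNK and 4.56% and 8.67% against T cells, and with thinned cells 3.57% and 6.38%, 3.70% and 8.02%, and 4.42% and 6.45%. With each cell weighted equally the counts were 64 and 143 against trNK, 89 and 159 against cNK and 87 and 127 against T cells. With no filter and with receptor genes at 0, fewer UMIs stand behind each ratio. TMM scaling divided all ratios of a comparison by the same factor, which lowered every ratio. The mean filter gave the levels of both groups equal weight, whereas the main filter weighted them by the UMIs of each group. For the granzyme limit the cause was not tested.

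Ratios to trNK that reversed were Top2a 1.00 (each cell weighted equally), Ccl3 0.964, Fos 0.952 and Cd74 0.923 (UMI limits), Ccl5 0.943 (receptor genes at 0), and Klra3 1.05 and Klri2 1.18 (no granzyme limit in trNK). Without the 3 cells rich in RNA of other types, the ratio of Hba-a1 was 0.0184 to trNK and 0.0135 to cNK, Hbb-bs 0.0460 and 0.0317, and Hbb-bt 0.0514 and 0.0364, since 1 of these cells held 975 of 979 haemoglobin UMIs. In clusterings at resolution 0.4 and 1.2 and with 3000 variable genes, the cluster that held most ILC1-like cells had 46, 30 and 41 of them.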
